A study of Macaca mulatta with 30 samples.

Results

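The 9 genes described here encode the surfactant proteins and the proteins that process, store and recycle them in the fetal lung of the rhesus macaque. Members were the rows of the lung count table whose Ensembl rhesus gene symbol was SFTPA1, SFTPB, SFTPC, SFTPD, ABCA3, NAPSA, LAMP3, CTSH or SLC34A2. Of these, 8 matched 1 identifier each among the 30246 identifiers of the table, of which 15769 carried a symbol. They were SFTPB (ENSMMUG00000017818), SFTPC (ENSMMUG00000013029), SFTPD (ENSMMUG00000002787), ABCA3 (ENSMMUG00000019242), NAPSA (ENSMMUG00000013402), LAMP3 (ENSMMUG00000010555), CTSH (ENSMMUG00000010093) and SLC34A2 (ENSMMUG00000021135). SFTPA1, which encodes surfactant protein A1, had no identifier there and is not analysed in lung. All 8 matched members were among the 17644 genes with enough reads to test.

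Pulmonary surfactant is a film of lipid and protein that lowers surface tension at the air surface of the alveoli. It is made by alveolar type II cells, which assemble it in lamellar bodies, secrete it and take part of it back. SP-B and SP-C are hydrophobic proteins cut out of larger precursors on the way to the lamellar body, whereas SP-D is a soluble collectin that binds microbes and takes part in surfactant turnover. Surfactant builds up late in gestation, and glucocorticoids are given before preterm birth to mature the fetal lung.

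Lung RNA came from 15 wild type fetuses of time-mated pregnant macaques, which formed 5 groups of 3 animals. Control mothers received intramuscular saline. The clinical drug, Celestone, which joins betamethasone-phosphate with betamethasone-acetate, was given intramuscularly at 0.25 mg/kg with delivery after 4 h or after 5 days. Beta-Ac, betamethasone-acetate alone, was given intramuscularly at 0.125 mg/kg with delivery after 6 h or after 5 days. The lung labels give no delivery time for controls, whereas the hippocampus labels of the same 3 control animals give 5 days. By those labels, time since injection and drug cannot be told apart at 4 h and 6 h. The lung labels give an age of gestational day 124 to 130, while the hippocampus labels of the same 3 control animals give 131 to 135 days. Over all 5 saline-treated animals whose hippocampus was used, these labels give 130 to 135 days. Libraries were made from whole lung tissue, in which fewer cells of a type and less RNA per cell cannot be told apart.

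The depth on genes was 14.1 to 45 M reads per library, and the group medians were 16 M in controls, 17 and 20.7 M at the early times, and 25.8 and 25.5 M at 5 days. Each member had between 691 and 416496 reads in every library. Levels are CPM, read counts scaled to library size with factors from the trimmed mean of M values (TMM), and they are compared between animals and not between genes, since gene lengths were not used. A gene was called changed when it differed by 1.5-fold or more with p under 0.05 and q under 0.1, where q is Storey's adjusted p over all 17644 genes in edgeR's quasi-likelihood test. The shares of all genes called, given below beside the members, rest on counts that moved by over 1.5 times with single libraries in most comparisons. The glucocorticoid-induced genes FKBP5, ZBTB16 and PER1 were called higher at 4 h and at 6 h and were not called at 5 days. Of all genes, 7.4% were called at 4 h and 0.442% at 6 h, in either direction. The changes were 30.8, 21.6 and 4.94-fold at 4 h and 9.25, 13.2 and 3.45-fold at 6 h. FKBP5 varied widely between animals at 6 h (52.0 ± 47.1 CPM, mean ± SD), against 5.61 ± 0.30 CPM in controls. All drug groups are compared with the same 3 controls, and no drug group has controls of its own. The animal numbers begin with 15 in all animals delivered at 4 h and in 2 of 3 controls, and with 16 or 17 in all other treated animals, so what these numbers stand for and the drug or time cannot be told apart.

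At 4 h after the clinical drug, 3 members were higher. They encode the secreted protein SP-C (SFTPC), the lipid transporter of the lamellar body membrane (ABCA3) and a membrane glycoprotein of the lamellar body (LAMP3), with changes of 1.91 to 2.38-fold. The call of 3 of 8 members (all of them higher) compares with 7.4% of all genes called in either direction and 3.46% called higher. No member was called lower. The median log2 fold change of the 8 members was 0.40, against 0.02 over all genes tested, and 6 of 8 were above 0, against 52.6% of all genes. In 4 members every treated animal exceeded every control, a pattern found in 11.1% of all genes, and the same number were higher at an unadjusted p under 0.05, against 9.45% of all genes.

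SFTPC was measured at 2708, 2730 and 5096 CPM in saline controls 1, 2 and 3. At 4 h after the clinical drug it stood at 5697, 7775 and 9645 CPM. All treated animals were above all controls, although control 3 came close to the lowest of them. The log2 fold change was 1.13 ± 0.28 (SE, n = 3 per group), or 2.19-fold with a 95% confidence interval of 1.46 to 3.30 (q = 0.0178).

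ABCA3, which loads phospholipid into lamellar bodies, was at 193, 199 and 211 CPM in controls. It reached 332, 382 and 437 CPM at 4 h. The controls were tightly grouped, with an SD of 9.29 CPM around a mean of 201 CPM, and the treated animals lay far outside that range. The log2 fold change was 0.93 ± 0.19 (SE), or 1.91-fold with an interval of 1.43 to 2.55 (q = 0.00759).

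LAMP3 was at 42.2, 47.3 and 92.4 CPM in controls and at 120.0, 131 and 184 CPM at 4 h. The groups did not overlap, and control 3 was again the highest of its group. The log2 fold change was 1.25 ± 0.28 (SE), or 2.38-fold with an interval of 1.57 to 3.62 (q = 0.0118).

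SFTPB, whose protein product is required for lamellar bodies and for the surface film, stood just below the fold-change threshold. It was at 3121, 3200 and 3775 CPM in controls and at 4112, 4813 and 6186 CPM at 4 h, again without overlap. The change was 1.497-fold (log2 0.58 ± 0.21, SE) with q = 0.093, so SFTPB passed both thresholds on significance and missed the one on size. It was called once replicate 2 of the treated animals was left out (log2 0.69, q = 0.0784, with q between 0.0605 and 0.238 over 11 alternatives).

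The other 4 members were not called at 4 h and their groups overlapped. SFTPD was at 831 to 1462 CPM in controls and 947 to 1200.0 CPM at 4 h (log2 -0.01 ± 0.19, SE). NAPSA, the aspartic protease napsin A that trims the SP-B precursor, was at 245 to 328 CPM and then 227 to 304 CPM (log2 -0.12 ± 0.17). CTSH, cathepsin H, a cysteine protease that acts on the SP-B and SP-C precursors, was at 145 to 233 CPM and then 162 to 253 CPM (log2 0.23 ± 0.33). SLC34A2, the sodium-dependent phosphate cotransporter of type II cells, was at 1203 to 1984 CPM and then 1512 to 1926 CPM (log2 0.04 ± 0.17). The 95% confidence intervals of the log2 fold change were -0.42 to 0.39 for SFTPD, -0.48 to 0.24 for NAPSA, -0.32 to 0.41 for SLC34A2 and, widest of the 4, -0.48 to 0.93 for CTSH.

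**Figure D1:**
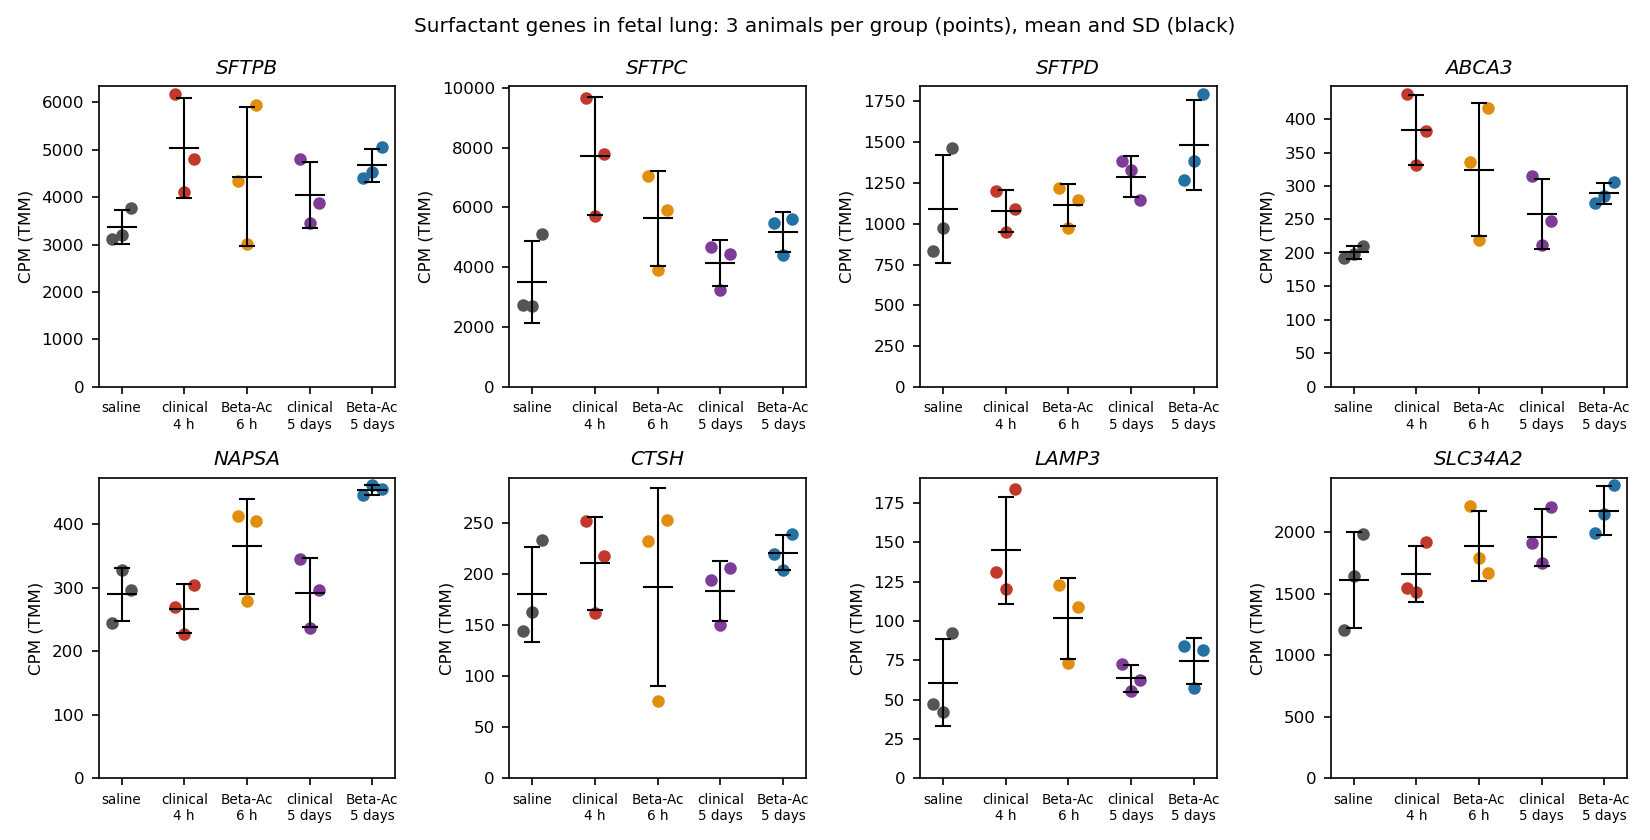
Level of each of the 8 surfactant genes in CPM (TMM) on linear axes from 0, with 1 point per animal and the mean and SD of 3 animals in black, for saline and for each drug at its early time and at 5 days. By group mean, SFTPB, SFTPC, ABCA3 and LAMP3 are highest 4 h after the clinical drug, at 5037, 7706, 384 and 145 CPM. Their means in controls are 3365, 3511, 201 and 60.6 CPM. SFTPD, NAPSA, CTSH and SLC34A2 are highest 5 days after Beta-Ac, at 1481, 454, 221 and 2178 CPM.

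At 6 h after Beta-Ac no member was called, in a comparison in which 0.442% of all genes were. By the unadjusted p, 3 members were higher at under 0.05, against 6.53% of all genes. DESeq2 called 1 member, ABCA3, and 247 of all genes, where edgeR's quasi-likelihood test called 78. All 8 members had a log2 fold change above 0, against 52.7% of all genes, with a median of 0.37, against 0.02 over all genes. Every treated animal exceeded every control in 1 member, against 9.03% of all genes.

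ABCA3 was that member. It was at 219.7, 336 and 417 CPM at 6 h, with replicate 2 only just above the highest control. Its log2 fold change was 0.69 ± 0.19 (SE, q = 0.179), and without replicate 2 it was 0.89 and was called (q = 0.0305, with q between 0.0305 and 0.745 over 11 alternatives). LAMP3 was at 73.1, 109 and 123 CPM (log2 0.74 ± 0.28, q = 0.275) and was called without control 3 (log2 1.18, q = 0.089, against 0.824 at most in other alternatives). SFTPC was at 3912, 5925 and 7053 CPM, with its lowest animal below control 3 (log2 0.68 ± 0.27, q = 0.292).

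Replicate 2 of the Beta-Ac animals at 6 h had the lowest level of the 3 in 7 of the 8 members. SFTPB was at 3023 CPM in it and at 4339 and 5947 CPM in the others (log2 for the group 0.40 ± 0.21, q = 0.37). CTSH was at 75.8 CPM in it, below all other lung libraries, and at 233 and 254 CPM in the others (log2 0.05 ± 0.33). SLC34A2 was the exception, at 1788 CPM in replicate 2, between 1668 and 2211 CPM. NAPSA (279, 405 and 412 CPM) and SFTPD (975, 1146 and 1222 CPM) differed from controls by log2 0.34 ± 0.17 and 0.03 ± 0.19 and were not called.

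**Figure D2:**
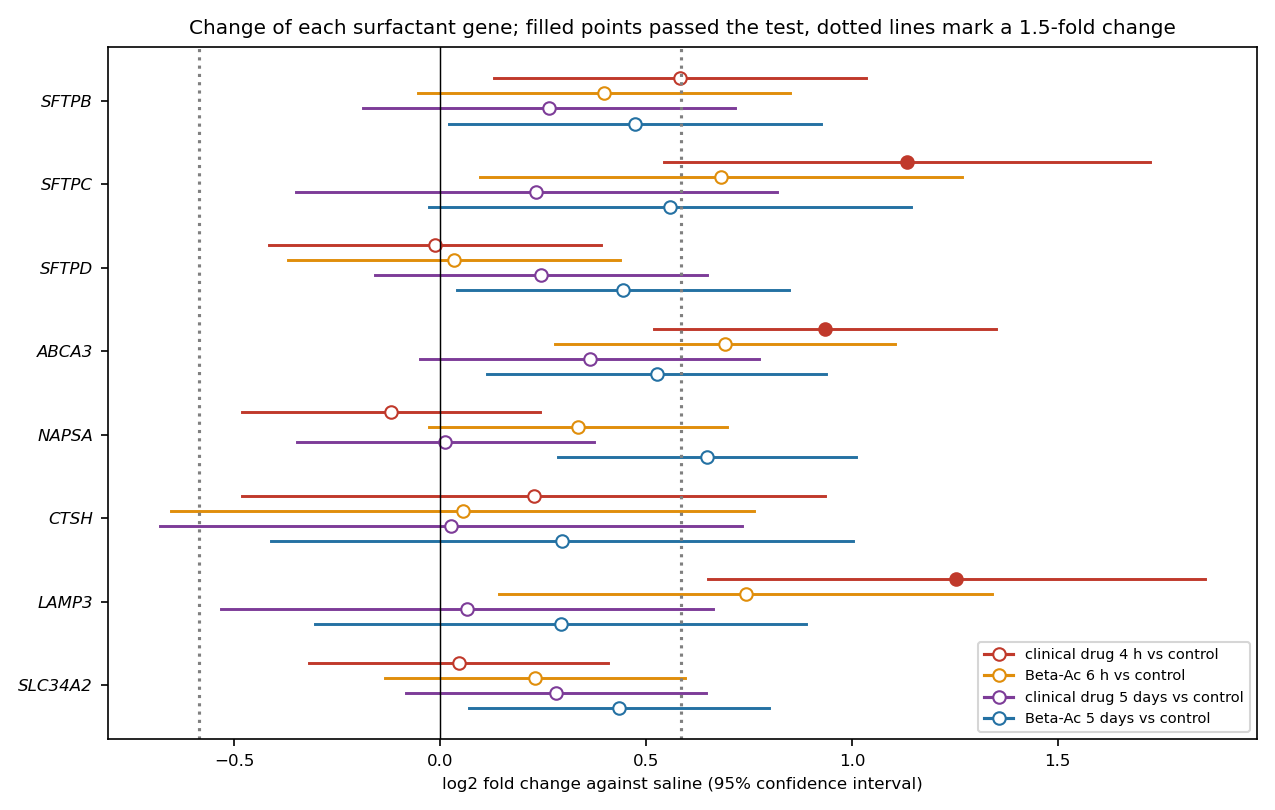
Log2 fold change against saline of each surfactant gene in the 4 drug groups, with the 95% confidence interval as a line, and dotted lines at a 1.5-fold change. Only the 3 filled points, SFTPC (1.13), ABCA3 (0.93) and LAMP3 (1.25) at 4 h after the clinical drug, passed the test.

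At 5 days no member was called against controls after either drug or with both drug groups pooled, in comparisons that called 0% (clinical drug), 0.00567% (Beta-Ac) and 0.0113% (both) of all genes. After the clinical drug all 8 log2 fold changes were above 0, against 50.5% of all genes, in a range of 0.01 to 0.36. Their median was 0.24, against 0.003 over all genes. None was higher at an unadjusted p under 0.05, against 2.36% of all genes, and DESeq2 called none. Only ABCA3, at 212, 247 and 315 CPM, had every animal above every control, against 6.25% of all genes, and there the lowest treated animal and the highest control were almost equal.

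After Beta-Ac at 5 days the members also lay above 0 in 8 of 8 cases, against 51.6% of all genes. Their median log2 fold change was 0.46, against 0.008 over all genes. At an unadjusted p under 0.05, 5 members were higher, against 3.49% of all genes, namely SFTPB, SFTPD, ABCA3, NAPSA and SLC34A2. Every treated animal exceeded every control in 4 of them, against 5.73% of all genes. With the adjustment over all genes, none passed (lowest q among the members 0.656).

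NAPSA showed the largest of these differences. It was at 445, 455 and 461 CPM after Beta-Ac at 5 days, with an SD of 7.90 CPM, and at 245, 296 and 328 CPM in controls. The treated animals were almost equal to each other and all lay above the 12 other lung libraries. The share of all genes with that pattern was not counted. The log2 fold change was 0.65 ± 0.17 (SE, q = 0.656), and DESeq2 called it (q = 0.074, the only call among 11 alternatives). In that comparison DESeq2 called 40 of all genes, where edgeR's quasi-likelihood test called 1.

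SFTPB was at 4416, 4531 and 5066 CPM (log2 0.47 ± 0.21) and ABCA3 at 275, 285 and 306 CPM (log2 0.53 ± 0.19) 5 days after Beta-Ac. SLC34A2 was at 1998, 2148 and 2387 CPM (log2 0.43 ± 0.17), with its lowest animal only just above control 3. SFTPD was at 1267, 1382 and 1793 CPM (log2 0.44 ± 0.19) and overlapped the controls. With both drugs pooled the median log2 fold change of the members was 0.35, against 0.003 over all genes, 3 members (ABCA3, NAPSA and SLC34A2) were higher at an unadjusted p under 0.05, against 3.21% of all genes, and only ABCA3 had all 6 treated animals above all controls, against 2.1% of all genes. DESeq2 called no member for both drugs pooled.

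Control 3 had the highest level of the 3 controls in 7 of the 8 members, NAPSA being the exception. It is the 1 control whose animal number begins with 16, as do those of all 6 animals delivered at 5 days. The summed level of the members was 13149 CPM in it, 8514 and 9258 CPM in the other controls, 10438 to 13719 CPM at 5 days after the clinical drug and 13473 to 15953 CPM at 5 days after Beta-Ac. A comparison within this number series, which would have 1 control, was not run. Without it, the log2 fold changes 5 days after Beta-Ac were 0.93 for SFTPC, 0.73 for LAMP3 and 0.72 for SFTPD in place of 0.56, 0.29 and 0.44, and none was called. At 4 h after the clinical drug SFTPC and LAMP3 then stood at log2 1.503 and 1.69.

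Between 4 h and 5 days after the clinical drug, SFTPC and LAMP3 were lower at the later time. Their call compares with 10.4% of all genes called in either direction and 4.47% called lower. SFTPC was at 3249, 4453 and 4684 CPM at 5 days, below every animal at 4 h (log2 -0.90 ± 0.27, SE, q = 0.0358). LAMP3 was at 55.5, 62.4 and 72.6 CPM at 5 days, likewise below every animal at 4 h and within the range of the controls (log2 -1.19 ± 0.28, q = 0.011). Without replicate 2, the lowest at 5 days, LAMP3 was called and SFTPC was not.

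ABCA3 was also below every 4 h animal at 5 days (log2 -0.57 ± 0.19, q = 0.0519), short of the fold-change threshold. How many of all genes were separated in this way between these times was not counted. The median log2 difference of the 8 members was -0.26, against -0.003 over all genes, and SFTPD, NAPSA and SLC34A2 had estimates above 0 (0.26, 0.13 and 0.24). For Beta-Ac no member was called between 6 h and 5 days, where 0.261% of all genes were. There, 1 member passed an unadjusted p under 0.05, against 7.91% of all genes, which was SFTPD (log2 0.41 ± 0.19, q = 0.546), and DESeq2 called none. SFTPC (log2 -0.12 ± 0.27) and LAMP3 (log2 -0.45 ± 0.28) were not called for Beta-Ac, and whether the course over time differed between the drugs was not tested.

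The drugs were also set side by side, as regimens that differed in dose and, at the early time, in hours. Between the early groups of the drugs no member was called, whereas 6.74% of all genes were. NAPSA was the 1 member with an unadjusted p under 0.05, against 20.7% of all genes, and was lower after the clinical drug (log2 -0.45 ± 0.17, q = 0.0901) without reaching the fold-change threshold. For SFTPC, ABCA3 and LAMP3, the log2 differences of the clinical drug from Beta-Ac were 0.45 (95% confidence interval -0.13 to 1.04), 0.24 (-0.17 to 0.65) and 0.51 (-0.08 to 1.105), intervals that include both no difference and a 1.5-fold difference.

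At 5 days the regimens were matched in time and still differed in dose. No gene of any kind was called (0%), and 1 member, NAPSA again, had an unadjusted p under 0.05, against 3.15% of all genes. NAPSA was at 236, 295 and 344 CPM after the clinical drug, all below the animals given Beta-Ac (log2 -0.64 ± 0.17, q = 0.999). The share of all genes separated in this way between the drugs was not counted. The other 7 members had estimates between -0.33 and -0.15, all lower after the clinical drug, with 95% intervals that included 0. DESeq2 called no member in either of these comparisons.

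The 8 members held 0.867 to 1.34% of all counted reads in controls. Their share was 1.25 to 1.89% at the early time of the clinical drug and 1.04 to 1.60% at that of Beta-Ac. At 5 days their share was 1.07 to 1.37% after the clinical drug and 1.37 to 1.59% after Beta-Ac.

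Within each library, the level of each gene was also set against the mean log2 CPM of all 8 genes, a measure in which a rise of some genes must lower others. On this scale SFTPC stood at 2.56 ± 0.24 (SD, n = 3) in controls and 3.21 ± 0.19 at 4 h after the clinical drug, and LAMP3 at -3.32 ± 0.34 and -2.52 ± 0.26. NAPSA stood at -0.98 ± 0.30 and -1.63 ± 0.11, SFTPD at 0.90 ± 0.11 and 0.40 ± 0.08, and SLC34A2 at 1.47 ± 0.15 and 1.02 ± 0.20. SFTPB held its place, at 2.56 ± 0.16 and 2.60 ± 0.17. At 5 days after the clinical drug SFTPC (2.63 ± 0.11), LAMP3 (-3.38 ± 0.04) and SFTPD (0.97 ± 0.23) were back within 1 control SD of the control mean.

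The ratio of SFTPC to SFTPB in CPM showed the same shift in single animals. It was 0.846, 0.875 and 1.35 in controls and 1.39, 1.56 and 1.62 in the 4 h animals. Among the 6 h animals it spread from 0.996 to 1.63, and at 5 days it ran from 0.942 to 1.15 after the clinical drug and from 0.972 to 1.24 after Beta-Ac.

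**Figure D3:**
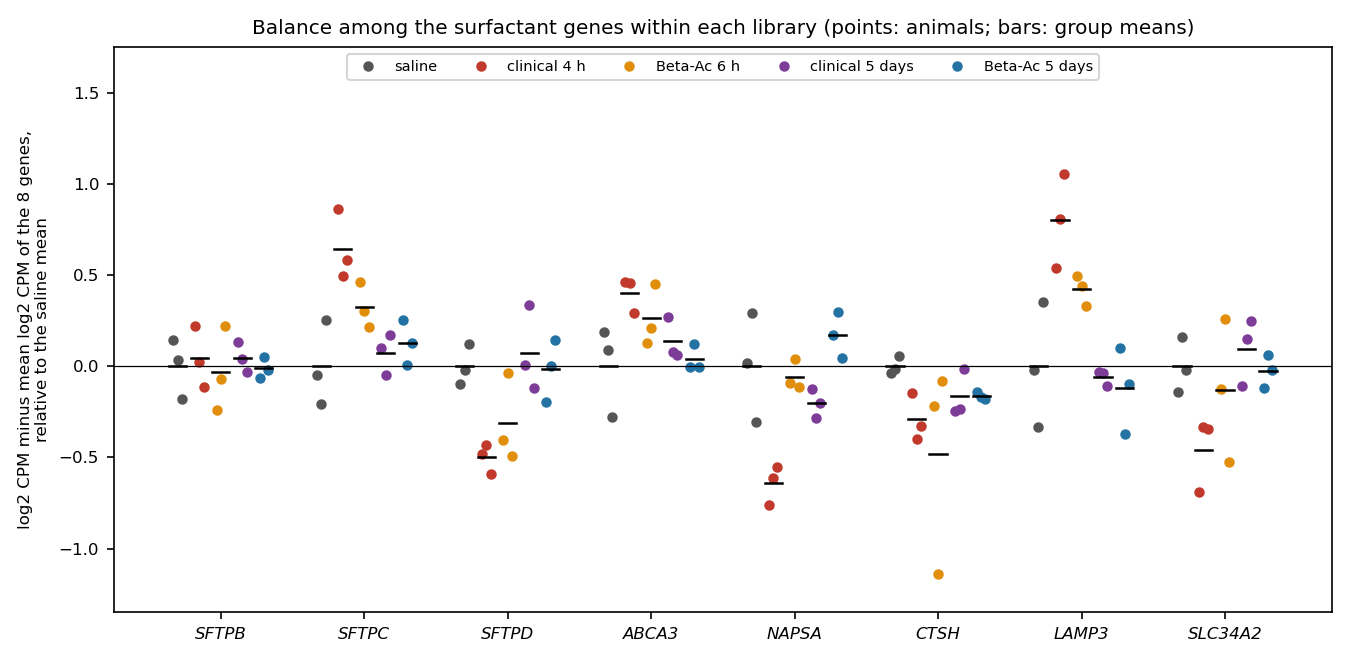
Log2 CPM of each surfactant gene minus the mean log2 CPM of the 8 genes in the same library, drawn relative to the mean of the saline animals, with 1 point per animal and a bar at each group mean. At 4 h after the clinical drug SFTPC, ABCA3 and LAMP3 lie above 0 in all 3 animals and SFTPD, NAPSA, CTSH and SLC34A2 below 0, while SFTPB stays near 0.

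Over the 15 lung libraries the pairs of members whose log2 CPM varied most alike were SFTPB with ABCA3 (Pearson's r = 0.919, Spearman's coefficient 0.857) and SFTPC with LAMP3 (r = 0.919, Spearman's coefficient 0.957). After the group means were taken out, r was 0.969 and 0.847, so these pairs also varied together between animals of 1 group. The pair least alike was NAPSA with LAMP3 (r = 0.04), for which r was 0.523 after the group means were taken out. By that second measure the pair least alike was SFTPB with SLC34A2 (0.137). All these values share libraries, groups and depth and are a description over points that are not independent.

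Beyond the members, the gene most like SFTPB was ACP3 (r = 0.875), a phosphatase, and the gene most like SFTPC was PPP1R14C (r = 0.91), an inhibitor of protein phosphatase 1. They were followed by ARHGEF28 (0.867) and ARHGEF5 (0.883). AKAP1, an anchor of protein kinase A, and ACP3 were closest to ABCA3 (0.92 and 0.912), and the anion transporter SLC26A9 and CRELD1 were closest to LAMP3 (0.93 and 0.913).

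For SFTPD the closest genes were the cation transporter SLC22A3 (0.841), MBL1, a mannose-binding collectin (0.792), and CTSC, a lysosomal protease (0.788). Among the genes closest to NAPSA were CAT, which encodes catalase (0.82), and RAI14 (0.805). Among those closest to SLC34A2 were the metal ion transporter SLC39A8 (0.787) and ASXL3 (0.786). CTSH was most like LRRC66 (0.808), SFTPB (0.767) and ZNF252 (0.74), the last of which fell to 0.165 without the 2 libraries farthest from the median. These genes were picked for their correlation among all tested genes with a symbol.

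Other genes of the surfactant pathway were followed in 5 lists. Of 8 measured transcription regulators, 2 were called higher at 4 h after the clinical drug, against 3.46% of all genes called higher. CEBPD, a regulator that glucocorticoids induce, went from 31.3 ± 6.26 to 73.9 ± 18.1 CPM (mean ± SD, n = 3, log2 1.24 ± 0.37, SE, q = 0.0465). ETV5, a factor that maintains type II cells, went from 52.8 ± 11.4 to 85.8 ± 7.41 CPM (log2 0.70 ± 0.21, q = 0.0479). NKX2-1, the main lung epithelial regulator of surfactant genes, was at 218 ± 53.2 and 273 ± 22.3 CPM and was not called (log2 0.33 ± 0.15, q = 0.182).

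Of 12 genes of lamellar body biogenesis and secretion, 1 was called higher and 1 lower at 4 h, against 7.4% of all genes called in either direction. P2RY2, the purinergic receptor through which ATP triggers surfactant secretion, went from 12.9 ± 2.90 to 26.3 ± 1.26 CPM (log2 1.03 ± 0.25, q = 0.0178). RAB38, a small GTPase of lysosome-related organelles, fell from 1.72 ± 0.06 to 0.86 ± 0.28 CPM (log2 -1.04 ± 0.37, q = 0.0866). The median of the list was -0.03.

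Of 12 genes of proprotein folding, sorting and cleavage, only CTSS was called at 4 h, near the share of all genes called in either direction (7.4%). It was lower (10.8 ± 2.85 and 7.002 ± 2.08 CPM, log2 -0.61 ± 0.22, q = 0.0909). Cathepsin S, its product, is known foremost from antigen-presenting cells. None of 6 genes of surfactant uptake and clearance and neither of the 2 other surfactant-associated genes, LPCAT1 and SCGB3A2, was called. The medians of the regulators, of the folding genes, of the uptake genes and of the last list were 0.27, 0.03, -0.14 and 0.67.

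In none of these lists was a gene called against controls at 6 h after Beta-Ac or at 5 days. CEBPD and ETV5 had log2 fold changes of 1.49 ± 0.37 (q = 0.13) and 0.89 ± 0.21 (q = 0.113) at 6 h after Beta-Ac. LPCAT1, which remodels surfactant phosphatidylcholine, was at 283 ± 11.4 CPM in controls and at means of 413 and 432 CPM 5 days after the clinical drug and Beta-Ac (log2 for both 0.58 ± 0.17, q = 0.644). From 4 h to 5 days after the clinical drug P2RY2 (log2 -1.19) and ETV5 (-0.77) were called lower, and CEBPA (0.70), FOXA2 (0.74), SREBF1 (0.72) and CTSS (0.85) higher. That comparison called 10.4% of all genes in either direction.

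**Figure D4:**
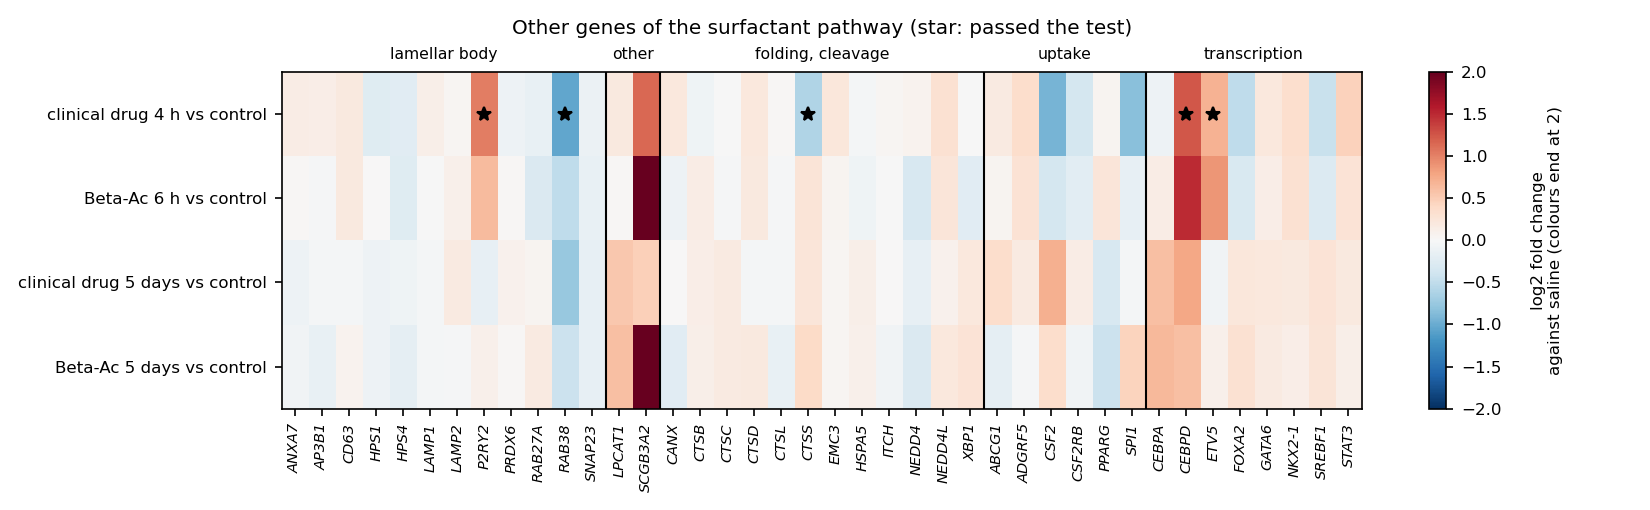
Log2 fold change against saline of the measured genes of 5 surfactant pathway lists in the 4 drug groups, with colours that end at a change of 2 in either direction and stars on genes that passed the test. The 5 stars all stand in the row of the clinical drug at 4 h, at P2RY2 (1.03), RAB38 (-1.04), CTSS (-0.61), CEBPD (1.24) and ETV5 (0.70).

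Markers of lung cell types were measured beside the members. Calls of markers at 4 h, here and below, compare with 7.4% of all genes called in either direction. At 4 h after the clinical drug the summed level of 5 epithelial markers was 600 to 795 CPM, against 505 to 629 CPM in controls. Of the 5 markers, 4 had estimates above 0, with a median log2 fold change of 0.15. CLDN18 was called higher (log2 0.93 ± 0.16), while EPCAM (0.15), CDH1 (0.14), KRT18 and KRT19 were not called. Of 6 markers of alveolar type I cells, HOPX was called higher (log2 1.29) and RTKN2 lower (-0.65), and their sum was 2943 to 3538 CPM against 2147 to 2995 CPM. The part of these markers in the rise of SFTPC, ABCA3 and LAMP3 was not tested.

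LAMP3 is also known from mature dendritic cells. Of 4 markers of those cells, 3, CCR7, CD83 and FSCN1, were called lower at 4 h (log2 -2.43, -1.45 and -1.354). Their sum was 138 to 155 CPM in controls and 47.3 to 72.4 CPM at 4 h, and the fourth marker, IDO1, was at means of 1.98 and 1.79 CPM. The part of these cells in the level of LAMP3 was not tested.

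Of the endothelial markers 1 of 4, KDR, was called lower (log2 -1.16), with sums of 2426 to 2599 CPM in controls and 1721 to 2392 CPM at 4 h. The endothelial sum was also below every control after Beta-Ac, at 2256 to 2327 CPM at 6 h and 1972 to 2126 CPM at 5 days, but not after the clinical drug at 5 days (2394 to 2539 CPM). CD163 was called higher among 6 tested macrophage markers (log2 1.81). The sums, which also include MARCO, were 124 to 158 CPM in controls and 89.7 to 231 CPM at 4 h. No marker of mesenchyme, blood, ciliated or airway secretory cells was called at 4 h, and no marker of any list was called at 6 h after Beta-Ac or at 5 days against controls.

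The airway secretory markers varied widely between animals, with sums of 51.4 to 162 CPM in controls, 196 to 547 CPM at 6 h after Beta-Ac and 111 to 566 CPM at 5 days after Beta-Ac. SCGB3A2, a secretoglobin of airway cells, was at 40.0 ± 8.08 CPM in controls and at means of 164 and 201 CPM in these groups (log2 2.03 and 2.33), without passing the test (q = 0.179 and 0.644). The sum of 5 ciliated markers was 23.8 to 73.5 CPM in controls, 78.4 to 112 CPM at 6 h after Beta-Ac and 40.05 to 201 CPM at 5 days after it. The part of airway tissue and endothelium in the levels of the members in these groups was not tested.

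The hippocampus of 5 saline-treated fetuses, a tissue without type II cells, was set beside the lung. These include the 3 control animals of the lung groups, and no comparison matched by animal was run. There SFTPB had 0 to 4 reads per library, SFTPC 0 to 11, SFTPD 0 to 1 and SFTPA1, which had an identifier in that table, 0 to 1, at depths of 18.3 to 25.9 M reads. NAPSA was at 0.711 to 1.38 CPM, LAMP3 at 0.0773 to 0.602 CPM, CTSH at 2.08 to 13.6 CPM and SLC34A2 at 0.744 to 10.96 CPM, all far below any lung library. ABCA3 was the exception, with 243 to 349.9 CPM (5779 to 8057 reads), above every saline-treated lung library (193 to 211 CPM) and within the range of the drug-treated ones (212 to 437 CPM). The tissues were counted and scaled separately, so these values stand side by side without a test.

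**Figure D5:**
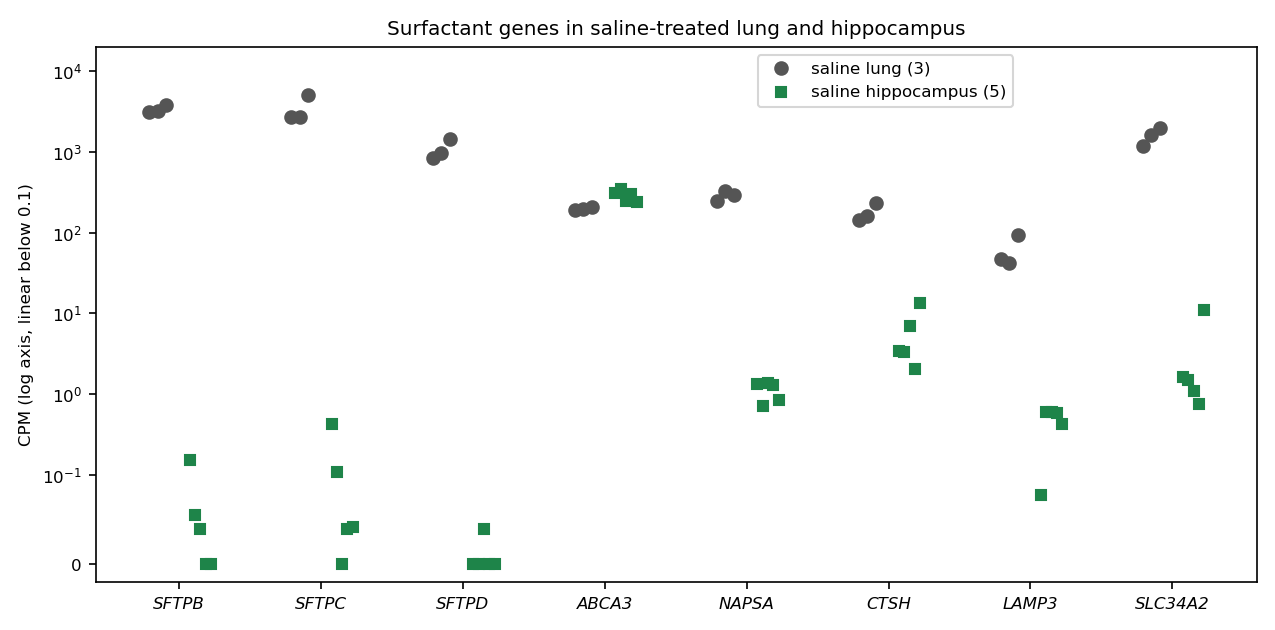
CPM of each surfactant gene in the lung of 3 saline-treated fetuses (circles) and in the hippocampus of 5 (squares), which include the same 3. The log axis is linear below 0.1. SFTPB, SFTPC and SFTPD are at 0.425 CPM or less in all hippocampus libraries and at 831 CPM or more in all lung libraries shown, whereas ABCA3 is at 193 to 211 CPM in lung and at 243 to 349.9 CPM in hippocampus.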

How the data were processed

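The authors' deposited counts were whole reads per Ensembl rhesus gene, without normalization. According to the study, 75 bp paired-end reads were aligned to MMUL1.0 with Bowtie 2 and counted with featureCounts, whereas the submitters' processing notes for lung name Bowtie 1.2.1.1 and featureCounts 1.5.1. Whether counting used strand is not given in the sources used here. Groups followed the labels. The 15 lung libraries were fitted together in edgeR 4.0.16 (R 4.3.3) with TMM factors of 0.938 to 1.05, group as the only term, the quasi-likelihood F-test (two-sided) and Storey's q, for 9 comparisons, over genes with 7 or more reads in 3 or more libraries. The prior count was 0.125 for fold changes and 2 for log2 CPM. Standard errors came from the F statistic, and p-values measure the spread between animals. The procedure was tested on simulated counts.

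The members and gene lists were chosen with earlier results of these data known. Named genes are all members, from each pathway list the called genes with the lowest p in each direction (at most 2) at 4 h, 6 h or 5 days (both drugs) against controls, and the 3 genes most correlated with each member, of which some are not reported here. CEBPA, FOXA2, SREBF1, CLDN18, NKX2-1, LPCAT1, SCGB3A2 and the marker genes were named after their values were seen. From the lists, FOXA1, CEBPB, KLF5, PGC, DNAJB9, DNAJC3, RAB3D, VAMP2, CSF2RA, SFTPA2, SFTA2 and SFTA3 had no identifier in lung, and MARCO was below the read minimum. Alternatives were RLE and total count scaling, no filter, filterByExpr, Benjamini-Hochberg adjustment, no fold-change threshold, only the groups compared, DESeq2 1.42.0, edgeR's likelihood ratio test, and each animal left out. Hippocampus CPM used total counts. The 10 hippocampus libraries of drug-treated animals were not used, since their labels conflict. No gene sequences or coordinates of the files' build were used here.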

Additional observations from a re-analysis of the deposited data

Results flagged for a closer look

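SFTPC and LAMP3 differed between delivery times of the clinical drug, at log2 fold changes of -0.900 and -1.19 for 5 days against 4 h, by edgeR's test of that difference itself.

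In the saline hippocampus, SFTPC in replicate 2 stood apart from the other 4 libraries at 0.425 CPM, which was 11 reads. SLC34A2 stood apart in replicate 5, at 10.96 CPM (260 reads) against 0.744 to 1.62 CPM in the others, and CTSH was also highest in that animal (13.6 CPM). The rule that flagged these gaps is met by chance in about 1 in 20 groups if values are normally distributed, which was not checked here. Both genes are far lower there than in lung.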

How the results depend on the processing

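The calls of SFTPC, ABCA3 and LAMP3 at 4 h after the clinical drug remained under all 15 alternatives, which called 3 to 4 members. SFTPC and LAMP3 kept their call from 4 h to 5 days in 14 of 15, with 1 to 3 members called when 1 animal was left out. At 6 h after Beta-Ac, DESeq2 and the likelihood ratio test each called 1 member (ABCA3), and leaving out 1 animal called 0 to 1. At 5 days after Beta-Ac DESeq2 called 1 (NAPSA). Between the early regimens 1 member (NAPSA) was called with no fold-change threshold, and 0 to 1 with 1 animal left out. The cause of these differences was not tested.

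Small estimates changed sign. With total count scaling SLC34A2 was at -0.074 at 4 h, SFTPD at -2.99e-05 at 6 h and NAPSA at -0.018 at 5 days after the clinical drug. Leaving out 1 animal gave -0.17 to 0.26 for SFTPD and -0.13 to 0.22 for SLC34A2 at 4 h, -0.13 to 0.31 for SFTPD and -0.23 to 0.41 for CTSH at 6 h, -0.12 to 0.14 for NAPSA, -0.14 to 0.51 for LAMP3 and -0.11 to 0.26 for CTSH at 5 days after the clinical drug, and -0.0298 to 0.62 for LAMP3 with both drugs at 5 days.

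Over all genes, the main, DESeq2 and likelihood ratio counts were 78, 247 and 247 at 6 h after Beta-Ac, 0, 16 and 16 (clinical drug), 1, 40 and 21 (Beta-Ac) and 2, 33 and 35 (both) at 5 days, 46, 185 and 153 from 6 h to 5 days, and 0, 8 and 3 between drugs at 5 days. With no fold-change threshold 2104 genes in place of 1306 were called at 4 h, 3306 in place of 1833 from 4 h to 5 days and 2389 in place of 1189 between the early regimens. With only the groups compared in the fit, 19 genes were called at 6 h after Beta-Ac, 7 at 5 days after Beta-Ac, 9 from 6 h to 5 days and 314 between the early regimens. With no filter 724 were called between those regimens and 1, 2 and 8 at 5 days (clinical drug, Beta-Ac, both), and Benjamini-Hochberg adjustment gave 29 from 6 h to 5 days. Leaving out 1 animal gave 9 to 211 genes at 6 h after Beta-Ac, 5 to 98 from 6 h to 5 days, 667 to 1971 between the early regimens, 0 to 9 (clinical drug), 0 to 2 (Beta-Ac) and 0 to 21 (both) at 5 days, 0 to 1 between drugs at 5 days, 1005 to 1287 at 4 h and 1256 to 2413 from 4 h to 5 days. The most were called without replicate 2 at 6 h (211 and 98), replicate 1 at 4 h (1971) and control 3 (9, 2 and 21), and the fewest without control 1 (9 at 6 h), replicate 2 at 4 h (667) and Beta-Ac replicate 3 at 5 days (5).

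No paired analysis of the lung groups was possible because each lung library came from a different fetus. The lung labels also carry no replicate numbers shared between groups. With 3 animals per group, standard errors of 0.17 (NAPSA, SLC34A2) to 0.33 (CTSH) on the log2 scale limited which changes against controls could be detected.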
